A study of Mus musculus with 4 samples.

Results

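The 10 immediate early genes *Fos*, *Fosb*, *Jun*, *Junb*, *Jund*, *Egr1*, *Atf3*, *Ier2*, *Dusp1* and *Nr4a1* were examined in endothelial cells (ECs) from the brains of embryonic mice with and without the forkhead transcription factor FOXQ1. The genes were chosen by name, and all 10 were present among the 12693 gene symbols in the deposited expression table. The study used bulk RNA-seq to ask what the loss of FOXQ1 does to the transcriptome of brain ECs at embryonic day 18 (E18). There were 4 libraries from mice labelled C57BL/6, 2 of them wild type (WT1 and WT2) and 2 with the genotype FOXQ1fl/fl;Tie2-Cre (*Foxq1* cKO1 and cKO2). According to the study, cortical cells were sorted by flow cytometry on the endothelial surface protein CD31, whereas the sample labels give the tissue only as brain. Per the methods, floxed mice were crossed with a Tie2-Cre line and littermates without Cre served as controls. The *Tie2* promoter is active in ECs but also in blood-forming cells, so the deletion may not be restricted to the endothelium. How many embryos went into each library is not given in the sources used here, so the spread between these libraries may be partly technical. The limma p-values below rest on that spread and on the variance of other genes at a like level. A threshold called unadjusted below is a limma p under 0.05, and adjusted values are corrected over all genes tested.

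Immediate early genes are transcribed within minutes of a growth factor, calcium, mechanical or stress signal and need no new protein synthesis to do so. Kinase cascades switch on factors such as SRF with its ELK partners and CREB, which already sit at the promoters, and the messages and proteins that follow are short-lived. Most of the genes encode transcription factors: FOS proteins pair with JUN proteins to form AP-1, ATF3 is a stress-induced factor related to them, EGR1 is a zinc finger protein and NR4A1 (Nur77) an orphan nuclear receptor. DUSP1 is a phosphatase that turns MAP kinases off again, and IER2 is a small nuclear protein. In ECs these genes respond to VEGF, shear stress and inflammatory signals, and they are also well known to be induced when a tissue is dissociated and its cells are sorted.

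The promoter stretches of 6 members are shown because they hold the CREB/ATF and AP-1-like elements for which several of these genes are known. The sequences come from RefSeq on the GRCm38.p6 build, which covered 8 of the 10 members, all except *Egr1* and *Ier2*. Each ends at the base before the annotated transcription start and is written 5′ to 3′ on the strand of the gene. Positions are chr12:85473750-85473889 on the plus strand for *Fos*, chr7:19310046-19310165 on the minus strand for *Fosb*, chr4:95052223-95052362 on the minus strand for *Jun*, chr8:84978749-84978888 on the minus strand for *Junb*, chr17:26508473-26508672 on the minus strand for *Dusp1* and chr15:101266606-101266845 on the plus strand for *Nr4a1*. Capitals mark TGACG, the core of the cAMP response element bound by CREB and ATF proteins, or its reverse complement CGTCA. In *Jun* they mark instead TGACATCA, the AP-1-like element, and in *Junb* they also mark TGTTTA, a forkhead core.
Fos: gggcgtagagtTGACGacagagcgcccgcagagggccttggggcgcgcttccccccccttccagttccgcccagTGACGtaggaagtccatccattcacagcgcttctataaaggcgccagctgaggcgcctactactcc
Fosb: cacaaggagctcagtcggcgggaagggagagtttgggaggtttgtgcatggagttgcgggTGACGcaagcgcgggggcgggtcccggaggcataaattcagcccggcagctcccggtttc
Jun: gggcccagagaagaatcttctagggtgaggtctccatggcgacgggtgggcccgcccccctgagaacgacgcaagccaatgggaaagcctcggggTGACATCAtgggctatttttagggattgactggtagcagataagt
Junb: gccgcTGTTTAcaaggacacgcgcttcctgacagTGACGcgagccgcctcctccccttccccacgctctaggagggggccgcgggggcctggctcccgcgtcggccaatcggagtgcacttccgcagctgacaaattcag
Dusp1: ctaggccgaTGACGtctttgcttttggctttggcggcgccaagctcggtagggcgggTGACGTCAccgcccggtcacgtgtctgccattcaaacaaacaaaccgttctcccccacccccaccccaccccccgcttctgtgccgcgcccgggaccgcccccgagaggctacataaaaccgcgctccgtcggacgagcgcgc
Nr4a1: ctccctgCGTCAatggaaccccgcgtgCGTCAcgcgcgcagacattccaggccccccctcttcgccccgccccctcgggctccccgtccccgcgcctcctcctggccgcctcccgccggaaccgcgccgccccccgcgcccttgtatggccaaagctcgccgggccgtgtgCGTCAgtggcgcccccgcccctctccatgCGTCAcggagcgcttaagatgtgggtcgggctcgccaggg

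Within the 250 bases before the start, searched on both strands, TGACG was found in 6 of the 8 members (*Atf3*, *Dusp1*, *Fos*, *Fosb*, *Junb* and *Nr4a1*), against 17.8% of all 32851 RefSeq windows of the same length. *Nr4a1* held 4 copies, a number reached by 0.137% of windows, *Dusp1* held 3 and *Fos* held 2. The complete palindrome TGACGTCA, which counts as a copy on each strand, was found only in *Dusp1* among these 8, and in 1.55% of windows. In *Fos*, 1 TGACG began 66 bases before the start, and the TATA box TATAAA began at 33 bases. TGACATCA, 45 bases before the start of *Jun*, was in 2.93% of windows, and was added to the search after the sequence had been seen. TGTTTA, the only forkhead form searched, was matched in *Junb* alone, 135 bases before its start, and in 12.03% of windows. Other forkhead forms were not searched. Among these is GTTTC, for which the study reports a FOXQ1 preference at *Adck1* and *Hap1*. The GC-box GGGCGG was present in 6 of the 8 members and in 32.7% of windows. The AP-1 element TGANTCA and the CArG box of SRF had no match in these windows of the 8 members, against 6.75% and 1.47% of windows. Bases farther upstream, and *Egr1* and *Ier2*, were not searched, so this does not show that the members lack such sites. A match is only a match of letters, not a measured site.

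Reads on the listed genes numbered 21466436 in WT1, 17901203 in WT2, 15827166 in cKO1 and 16963866 in cKO2. Both WT libraries were thus deeper than both cKO libraries, so depth cannot be told apart from genotype here. Values were scaled by size factors, and the part of depth in the member values was not tested. *Foxq1*, the deleted gene, had normalized counts of 353 in WT1 and 297 in WT2, but 5.44 in cKO1 and 32.6 in cKO2, a difference of -4.47 on the log2 scale (standard error, SE, 1.04, limma adjusted p = 0.857), and it passed the unadjusted threshold of 0.05. Across the 12472 genes tested with limma, 651 had an unadjusted p under 0.05 and 0 passed the Benjamini-Hochberg adjustment, whereas DESeq2 called 59 on the recovered reads and edgeR 0. The unadjusted limma count was 1569 without WT2 and 276 without cKO1. All 15 endothelial markers checked were listed. Mitochondrially encoded genes took 2.11 to 2.31% of reads in each library.

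The members were among the most abundant messages of these cells. Together they took 0.481% and 0.433% of the reads on listed genes in the WT libraries and 0.430% and 0.433% in the cKO libraries. Normalized counts, which are reads scaled by the size factor of each library, ran from 20.3 for *Jund* to 25943 for *Jun*. To compare levels between genes, the normalized counts were divided by exon length, and on that per-kb scale the mean over the 4 libraries was 8033 for *Fos* and 7845 for *Jun*, ranks 54 and 57 of the 12678 genes with a length. *Junb* (3734) and *Ier2* (3598) came next, followed by *Egr1* (2289) and *Dusp1* (1704). *Fosb* (528) and *Atf3* (383) were lower, at the 86.1 and 81.0 percentiles of all genes. *Nr4a1* (60.0) was at the 35.1 percentile and *Jund* (16.8) at the 9.76 percentile, so these 2 members were not high in these counts. *Jund* shares exon bases with an antisense gene, as described below, so its count may not give its level in the cells.

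The order of the per-kb levels was stable between libraries except within 3 neighbouring pairs. *Fos* was above *Jun* in 2 of the 4 libraries, *Junb* above *Ier2* in 3 and *Fosb* above *Atf3* in 3, and the ranges of these pairs overlapped. For each of the other neighbouring pairs the higher gene was higher in all 4 libraries and the ranges were separate.

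**Figure D1:**
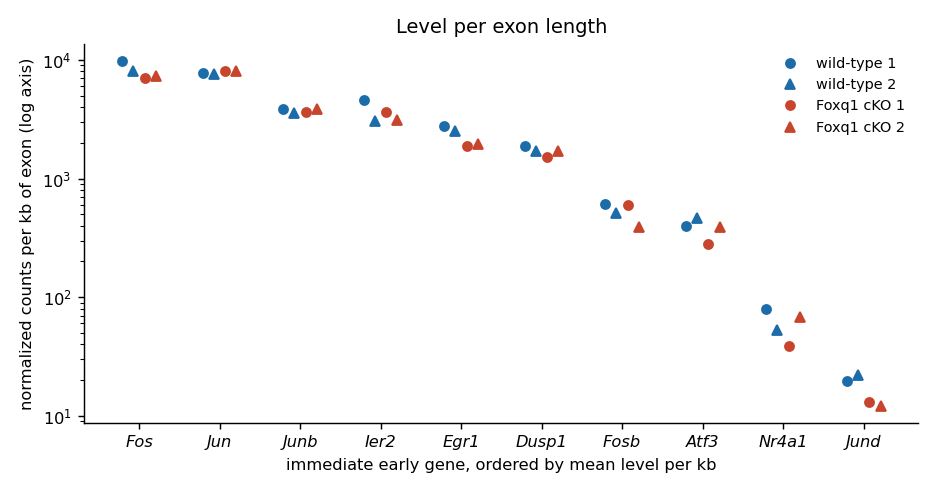
Normalized counts per kb of exon for the 10 members in WT1, WT2, *Foxq1* cKO1 and cKO2, on a log axis, with 1 point per library (blue for WT, red for cKO, circles for the first and triangles for the second library). The members form a descending order from *Fos* and *Jun* at 8033 and 7845 to *Jund* at 16.8 per kb, and points of WT and cKO libraries lie close together at each gene compared with the distance between genes.

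The transcripts of the members have few exons, a trait that the choice by name did not use. In the GENCODE annotation (longest coding transcript per gene) the members had a median of 3 exons, against 9 over 11322 genes, and all 10 were below that median. *Jun*, *Junb*, *Jund* and *Ier2* have a single exon, as do 2.30% of the genes. Length was less uniform. The median transcript had 2049 bases against 3046.5, with 3 members above that value, and 4 members had a 3′ untranslated region longer than the median. The GC content of the members was higher, with a median of 56.5% against 50.4% and all 10 above the median of all genes. *Jund* reached 67.1%, a value exceeded by 0.124% of genes. The 3′ untranslated regions held ATTTA, the core of the AU-rich elements that mark unstable messages, at a median of 2.89 per kb against 1.28. *Fos*, *Jun* and *Dusp1* had 4 copies each, *Atf3* and *Nr4a1* had 3, *Junb* and *Egr1* had 2, *Fosb* and *Jund* had 1 and *Ier2* had 0. At least 3 copies were held by 5 of the 10 members and by 35.2% of all genes. *Fosb*, at 0.47 per kb, and *Ier2* were below the median of all genes.

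Compared with WT, most members were lower in the cKO libraries, by modest amounts. The cKO mean was below the WT mean for 8 of the 10 members and above it for *Jun* and *Junb*, while 49.3% of all genes tested had a lower cKO mean. The median log2 difference (cKO minus WT) was -0.26 over the members and 0.0086 over all genes. For the 7 members with a mean of at least 2000 normalized counts the median was -0.16, beside -0.086 over the 987 genes in the level range of those 7, of which 9.83% passed an unadjusted limma p of 0.05. The median over all 10 members rested in large part on WT1, since it was -0.078 without that library. It was -0.40 without WT2. *Egr1* alone passed an unadjusted p of 0.05 with limma, 1 of 10 members, and the count was also 1 with edgeR and with DESeq2. Leaving out WT1 or cKO1 gave 0 members at that threshold with limma, and leaving out WT2 gave 2. The share of all genes at that threshold was 5.22% with limma, 4.92% with edgeR and 6.45% with DESeq2. After adjustment over all genes, 0 of the 10 members were called with limma, edgeR or DESeq2, against 0.0%, 0.0% and 0.473% of all genes.

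Separation of the groups was counted as well. In 5 members the WT and cKO values did not overlap, against 36.0% of all genes. *Fos*, *Jund*, *Egr1* and *Atf3* were lower in cKO and *Jun* was higher. The remaining 5 members overlapped between groups. For any single gene, the exact two-sided permutation test of 2 against 2 libraries has a smallest possible p of 0.333. In 4 members the difference between the group means exceeded the differences within both groups, as it did in 22.7% of genes.

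**Figure D2:**
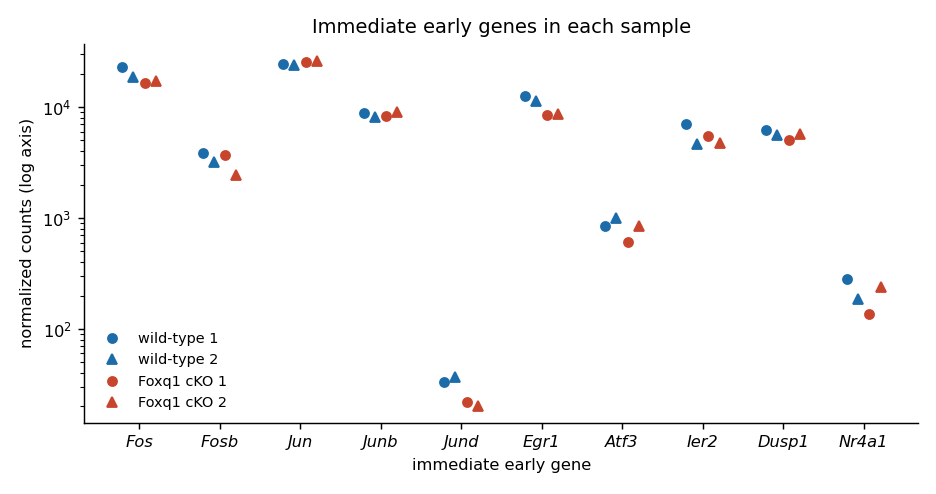
Normalized counts (log axis) of each member in the 4 libraries, with blue points for WT and red points for *Foxq1* cKO. *Egr1*, *Fos*, *Jund* and *Atf3* have both red points below both blue points, *Jun* has them above, and for the other 5 members the points of the groups overlap.

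Among the FOS family, *Fos* encodes the prototype partner of JUN in AP-1. It had normalized counts of 22929 in WT1, 18837 in WT2, 16659 in cKO1 and 17147 in cKO2. Both cKO libraries lay below both WT libraries, and most of the spread came from WT1. The group means were 20883 ± 2893 (SD, n = 2) in WT and 16903 ± 346 (SD, n = 2) in cKO, so that cKO was at 80.9% of WT. The log2 difference was -0.30 (SE 0.134, 95% interval -0.63 to 0.03) and did not pass the unadjusted or the adjusted threshold (limma adjusted p = 0.857). It was -0.16 without WT1 and -0.44 without WT2, and only the latter omission passed the unadjusted threshold.

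*Fosb*, whose product has a truncated, long-lived splice form that gene-level counts cannot separate from the full one, was less regular. Its normalized counts were 3844 in WT1, 3198 in WT2, 3722 in cKO1 and 2424 in cKO2. The cKO libraries spanned the widest relative gap of any FOS or JUN member, and cKO1 fell between the WT values. On the log2 scale the difference was -0.22 (SE 0.259, 95% interval -0.86 to 0.41, adjusted p = 0.900), with values from -0.53 without cKO1 to 0.086 without cKO2. *Fos* made up 85.6% and 85.5% of the summed *Fos* and *Fosb* normalized counts in WT and 81.7% and 87.6% in cKO.

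None of the 3 JUN family members passed an unadjusted limma p of 0.05, also when edgeR or DESeq2 was used. *Jun*, which can form AP-1 with FOS proteins or with itself, had normalized counts of 24488 in WT1, 24162 in WT2, 25479 in cKO1 and 25943 in cKO2. Replicates differed by 0.02 in WT and -0.03 in cKO on the log2 scale, so the groups separated even though the difference was small. Means were 24325 ± 231 (SD, n = 2) in WT and 25711 ± 328 (SD, n = 2) in cKO, or 105.7% of WT, and the log2 difference of 0.08 (SE 0.0998, 95% interval -0.16 to 0.32) did not pass the unadjusted threshold (limma adjusted p = 0.909). The upper end of the interval is a rise of 25.1% and the lower end a fall of 10.7%. *Jun* was the member with the smallest SE.

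*Junb*, an AP-1 partner that often restrains the activity of JUN, had normalized counts of 8843 in WT1, 8193 in WT2, 8375 in cKO1 and 8953 in cKO2. The groups overlapped, with the highest and the second lowest value both in cKO. The log2 difference was 0.02 (SE 0.135, 95% interval -0.31 to 0.36, adjusted p = 0.983), and its sign turned when WT2 (-0.030) or cKO2 (-0.023) was left out. *Jund*, the JUN family member that is usually expressed at a steady level and responds least to stimuli, was near the floor of the table. Only 39, 37, 20 and 20 reads were counted in WT1, WT2, cKO1 and cKO2, or 32.9, 36.9, 21.8 and 20.3 normalized counts. The log2 difference was -0.70 (SE 0.931, 95% interval -2.97 to 1.57, adjusted p = 0.913). Exact Poisson 95% intervals, which cover counting error only, were 27.7 to 53.3 reads for WT1 and 12.2 to 30.9 reads for each cKO library, so these overlapped although the values did not.

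Some members share exon bases with other genes, and the sources used here do not state whether counting used strand. *Jund* overlaps the antisense gene *Gm11175* over 877 bases and *Jun* the antisense gene *Junos* over 232 bases. *Junb* shares 173 bases on the opposite strand with *Prdx2*, a peroxiredoxin listed at 6277 to 9097 normalized counts, and *Dusp1* shares 11 bases with *Ergic1*. Reads in those stretches cannot be assigned with certainty, and how much this bears on the low level of *Jund* was not tested.

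*Egr1* was the only member to pass the unadjusted limma threshold. EGR1 is a zinc finger factor induced through SRF and ELK proteins, and it drives genes of growth and vascular repair. Its normalized counts were 12483 in WT1, 11349 in WT2, 8486 in cKO1 and 8734 in cKO2. The values within a group were close, and the gap between the lower WT library and the higher cKO library was wider than the gap within either group. Means were 11916 ± 801 (SD, n = 2) in WT and 8610 ± 176 (SD, n = 2) in cKO, or 72.3% of WT. The log2 difference was -0.47 (SE 0.130, 95% interval -0.78 to -0.15). It passed the unadjusted but not the adjusted threshold (limma adjusted p = 0.857), and *Egr1* was 130 in the ranking of all 12472 genes by p. With DESeq2 the adjusted p was 0.386 and with edgeR 0.940. The unadjusted call was lost without WT1 (log2 difference -0.40) and without cKO1 (-0.45), and it was also lost when the variance was not modelled as a trend with expression.

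*Egr1* and *Fos* were also divided by *Jun* within each library on the per-kb scale, which gives ratios that do not depend on the size factors. The ratio of *Egr1* to *Jun* was 0.363 in WT1, 0.334 in WT2, 0.237 in cKO1 and 0.239 in cKO2. The ratio of *Fos* to *Jun* was 1.27, 1.06, 0.886 and 0.896 in the same order. Both ratios were higher in both WT libraries than in either cKO library. This order followed from the values already given, with *Egr1* and *Fos* lower and *Jun* higher in both cKO libraries. It is therefore no separate check. The ratios show unequal levels within a library and do not say which of the genes differed.

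*Atf3*, a factor of the ATF/CREB family that is induced by stress and often represses its targets, had normalized counts of 854 in WT1, 995 in WT2, 602 in cKO1 and 848 in cKO2. Both cKO values were below both WT values, but cKO2 and WT1 were nearly equal. For *Atf3* the log2 difference was -0.37 (SE 0.338, 95% interval -1.19 to 0.46, adjusted p = 0.887), and it was -0.12 without cKO1 and -0.61 without cKO2. *Nr4a1*, the nuclear receptor induced in ECs by VEGF and inflammatory signals, had 281 normalized counts in WT1, 185 in WT2, 137 in cKO1 and 238 in cKO2. The values of the groups interleaved, and the replicates differed more than the groups, by 0.60 in WT and -0.79 in cKO on the log2 scale. Its log2 difference of -0.34 (SE 0.632, 95% interval -1.88 to 1.21, adjusted p = 0.946) became 0.059 without cKO1 and -0.73 without cKO2.

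*Ier2* had normalized counts of 6979 in WT1, 4676 in WT2, 5534 in cKO1 and 4717 in cKO2. WT1 was the highest and WT2 the lowest of the 4, so both cKO values lay between them. Its log2 difference was -0.16 (SE 0.231, 95% interval -0.72 to 0.40, adjusted p = 0.919), with values from -0.45 without WT2 to 0.13 without WT1. *Dusp1*, the phosphatase that ends MAP kinase signalling, had 6217 in WT1, 5608 in WT2, 5046 in cKO1 and 5697 in cKO2. The value of cKO2 was above that of WT2, and the log2 difference was -0.14 (SE 0.159, 95% interval -0.53 to 0.25, adjusted p = 0.899). For *Dusp1* the interval runs from a fall of 30.6% to a rise of 18.9%, and the difference was -0.065 without WT1 and -0.052 without cKO1.

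**Figure D3:**
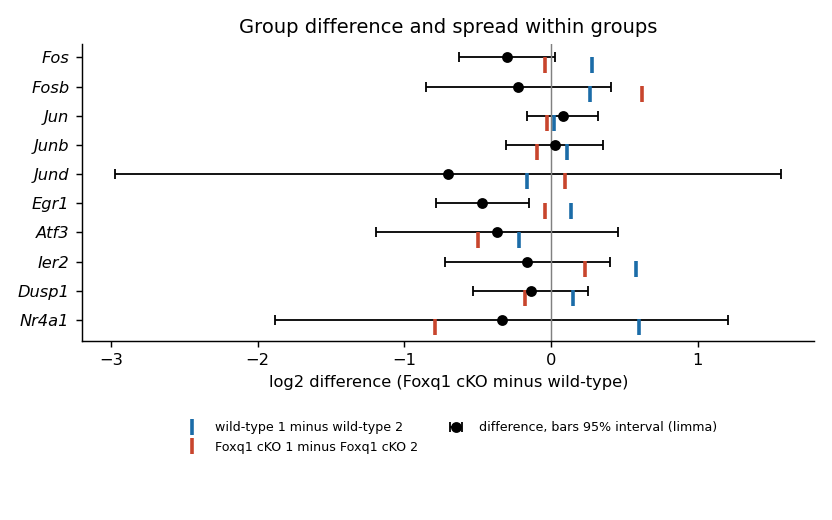
Log2 difference (*Foxq1* cKO minus WT) of each member with its 95% interval from limma, and ticks for the differences between the replicates within WT and within cKO. Only the interval of *Egr1* (-0.78 to -0.15) lies wholly below 0, and the intervals of *Jund* and *Nr4a1* are the widest.

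The SEs behind these values followed the level of each gene. In part this is built into the main fit, which draws the variance of each gene towards a trend with expression. *Jund* had an SE of 0.931 although its replicates differed by only -0.16 in WT and 0.09 in cKO on the log2 scale. The median SE of the log2 difference was 0.195 over the members and 0.496 over all genes. The 7 more abundant members had SEs of 0.0998 to 0.259, and the 987 genes between 3297 and 25018 normalized counts, the range these 7 span, had a median SE of 0.177. Of those 987 genes, 64.4% had a lower cKO mean, against 49.3% over all genes, and in 43.3% the groups did not overlap, against 36.0%. Among the 7 members, 5 had a lower mean, and the groups did not overlap for *Fos*, *Egr1* and *Jun*.

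**Figure D4:**
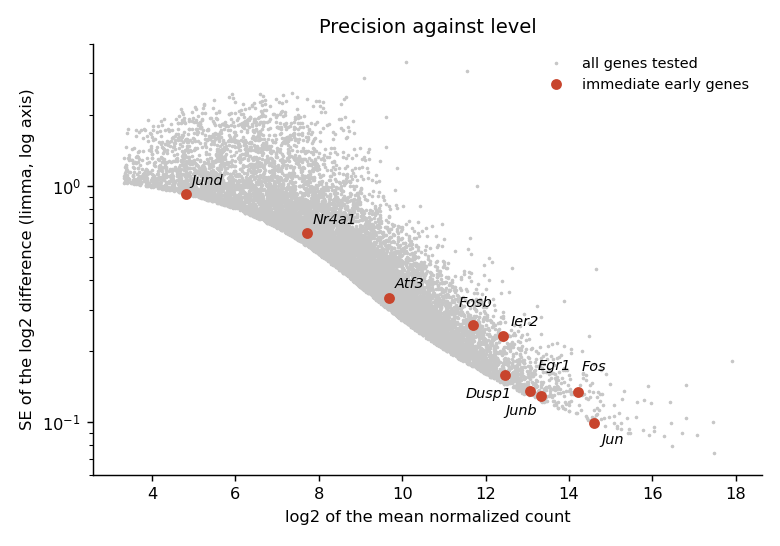
Standard error of the log2 difference (log axis) against the log2 of the mean normalized count for all genes tested (grey). The members are in red and named. The limma fit models variance as a trend with expression, which in part sets this relation. The 7 members above 2000 normalized counts lie at SEs of 0.0998 to 0.259, while *Jund* reaches 0.931.

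The library with the highest and the lowest value was not evenly spread. WT1 was above WT2 in 8 of the 10 members, and cKO1 was above cKO2 in 3. WT1 was the highest library in 6 members and cKO1 the lowest in 5. The median absolute log2 difference between replicates was 0.191 in WT and 0.136 in cKO over the members, against 0.526 and 0.411 over all genes.

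The profile of the members over the 4 libraries was compared with that of other genes by the distance between centred log2 values. *Fos* was the member nearest to the mean profile, at a distance of 0.0885, and *Nr4a1* the farthest, at 0.595. Of the 11394 candidate genes, the nearest were *Rab11a* (0.0296), a GTPase of recycling endosomes, *Ecscr* (0.0488), an endothelial surface protein, *Sparc* (0.0493), a matricellular protein, *Paip2* (0.0531), a regulator of poly(A)-binding protein, and *Cstb* (0.0536), a protease inhibitor. *Sparc* had 58575 and 50761 normalized counts in WT and 44568 and 45154 in cKO, in the same order of libraries as *Fos*. Of the candidates, 36 were nearer to the mean profile than *Fos* itself, and the likeness rests on only 4 libraries.

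Other genes of the same response were taken from lists written out by name, with earlier results of these data known. Of 60 further immediate early, feedback and stress-induced genes, 47 were listed and tested. At an unadjusted limma p under 0.05, 4 were lower in cKO (8.51%, against 3.05% of all genes) and 0 were higher (against 2.17%). Of the 987 genes in the level range of the 7 abundant members, 8.11% were lower at that threshold. The lists were not matched to that range, so the shares give no support for a lower response. With the upstream genes described below, 5 of 77 passed in either direction, and this count was 11 without WT2 and 3 without cKO1. The 5 called with all libraries were 6.49% of the 77, near the 5.22% of all genes that passed in either direction. With limma 0 passed the adjustment, and DESeq2 called 1. All 4 belonged to the 18 effector and stress genes, whose median log2 difference was -0.27. *Ccn1* (Cyr61), a matricellular protein induced by serum and by YAP, had 9222 and 9084 normalized counts in WT1 and WT2 and 5803 and 5310.2 in cKO1 and cKO2. Its log2 difference was -0.72 (SE 0.141, limma adjusted p = 0.857), and it was the gene called by DESeq2 (adjusted p = 0.0303).

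*Ccn2* (Ctgf), the related matricellular gene, had 807 and 901 normalized counts in WT and 349 and 364 in cKO (log2 difference -1.26, adjusted p = 0.857). *Hmox1*, the heme oxygenase of the oxidative stress response, had 2258 and 1792 in WT and 721 and 1019 in cKO (log2 difference -1.23, adjusted p = 0.857). For *Hspb1*, a small heat shock protein, the values were 3877 and 4073 in WT and 2083 and 2705 in cKO (log2 difference -0.74, adjusted p = 0.857). In each of these 3 genes both cKO libraries were below both WT libraries. Without cKO1, *Ccn2* (-1.23) and *Hspb1* (-0.55) no longer passed the unadjusted threshold.

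The transcription factors nearest in kind to the members gave no gene past the unadjusted threshold. The median log2 difference over the 14 listed was -0.11. *Nr4a2*, the close relative of *Nr4a1*, had 492 and 389.8 normalized counts in WT and 257 and 232 in cKO (log2 difference -0.84, adjusted p = 0.857). At the other end, *Batf*, an AP-1 partner known from immune cells, had 20.2 and 25.9 in WT and 42.5 and 67.1 in cKO (log2 difference 1.19, adjusted p = 0.873). Among the 15 genes that dampen the response or decay its messages, the median was -0.099, and the lowest, *Tnfaip3*, an inhibitor of NF-kappaB, had 534 and 489.5 in WT and 76.2 and 333 in cKO (log2 difference -1.67, adjusted p = 0.857). The highest was *Spry2*, an inhibitor of growth factor signalling, at 0.59 (adjusted p = 0.902). Of the 16 upstream kinases, *Mapk9* (JNK2) was higher in cKO, with 314 and 446 in WT and 756 and 758 in cKO (log2 difference 1.01, adjusted p = 0.857). *Mapk9* passed the unadjusted threshold, but not without WT1, cKO1 or cKO2, where its log2 difference was 0.76 to 1.02. The 14 upstream transcription factors, SRF, ELK and CREB proteins among them, had a median of -0.17 and 0 past the unadjusted limma threshold, from -0.42 for *Atf2* to 0.73 for *Atf1*.

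**Figure D5:**
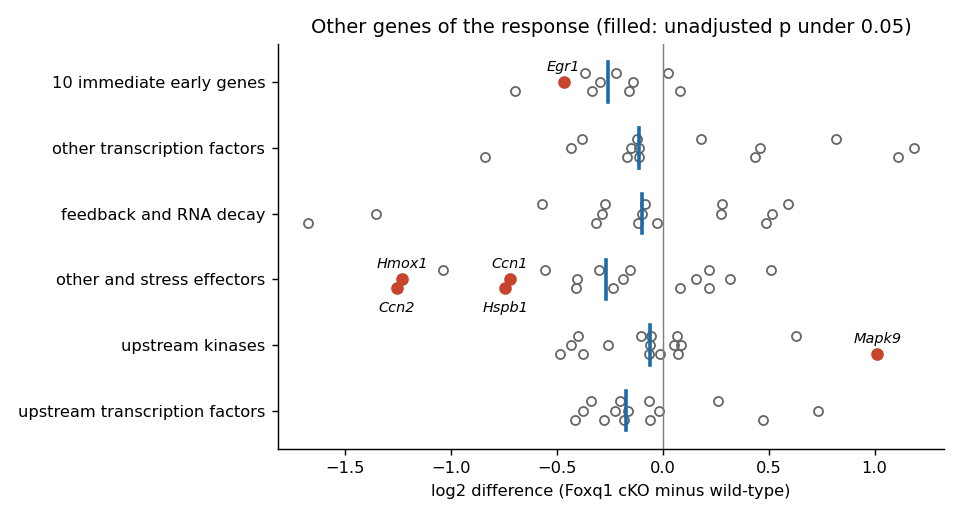
Log2 difference (*Foxq1* cKO minus WT) of every listed gene in the members and in each further response list, with 1 point per gene, filled where the unadjusted limma p was under 0.05, and a line at the median of each list. The members' median is -0.26, and the 4 lower points that passed in the other response lists are *Ccn1*, *Ccn2*, *Hspb1* and *Hmox1*.

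Markers of cell types were read beside the members, because in bulk libraries fewer cells of a type and less RNA per cell cannot be told apart. The 15 endothelial markers summed to 472596 and 429955 normalized counts in WT and 369113 and 415312 in cKO. Of these markers 13 had a lower cKO mean and 3 passed an unadjusted limma p of 0.05, *Flt1* (-0.48), *Mfsd2a* (-0.31) and *Ly6c1* (-0.60), all lower in cKO and each with an adjusted p of 0.857. None of these 3 passed without WT1, cKO1 or cKO2. All 12 microglia and macrophage markers were listed, with sums of 9966 and 12365 in WT and 7707 and 8037 in cKO. Their means were lower in cKO for 6 and higher for 6, with a median log2 difference of -0.12. *Csf1r*, a defining gene of that lineage, had 3365 and 2579 in WT and 1732 and 1587 in cKO (log2 difference -0.83, adjusted p = 0.857), and it passed the unadjusted threshold, but not without WT1 (-0.64) or cKO2 (-0.77). In the same list, and named after the values were seen, *Ptprc* was at 2.38 without passing, and *Mrc1* contributed 1217 normalized counts to the sum of WT2 but 21.9 to that of WT1. Pericyte and smooth muscle markers (9 of 11 listed) ranged from 153696 to 155649 in WT and from 146364 to 160912 in cKO, with 0 past the unadjusted limma threshold. Neural markers (13 of 14 listed) ranged from 25472 to 26114 in WT and from 24682 to 25699.8 in cKO, and fibroblast markers (4 of 6) from 8790.3 to 9941 in WT and from 5736 to 9434 in cKO. Erythroid markers (6 of 7) ranged from 15683 to 20673 in WT and from 15841 to 20479.9 in cKO. By limma 0 markers of the last 3 lists passed the unadjusted threshold. Log2 differences ran from -0.20 for *Anpep* to 0.12 for *Notch3* among the pericyte and smooth muscle markers, from -1.29 for *Pax6* to 2.41 for *Snap25* among the neural markers and from -0.75 for *Col1a1* to 0.04 for *Col1a2* among the fibroblast markers. The part of endothelial and microglial content in the lower *Egr1* and *Fos* values was not tested.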

How the data were processed

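RNA was sequenced from 4 E18 brain samples, 2 per genotype. The submitters' processing notes name TopHat2 2.0.12, Bowtie2 2.2.3, HTSeq 0.6.0 and the mm9 build. RNA was extracted with Trizol per the labels and the study's methods, which add that cells were sorted on CD31. The study describes the sequencing as based on Smart-seq2. Which protocol made these libraries could not be settled, and strand handling is not given in the sources used here. The deposited table holds a normalized signal per gene and sample, which the authors repeated over 1207361 lines and which was reduced to 12693 gene symbols (8 symbols with 2 gene IDs). All values were whole multiples of 1 step per sample within a tolerance of 0.01, so whole reads were recovered by division by the size factors, which were 0.919 to 1.19. Every listed gene had at least 21 reads in all.

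The main test was limma 3.58.1 (R 4.3.3, trended eBayes) on log2(value + 1) on genes whose mean reached 10, without a replicate block, and p-values were adjusted by Benjamini-Hochberg over all 12472 genes. Differences are on that log2 scale and understate the change of low genes. edgeR 4.0.16 and DESeq2 1.42.0 were run on the recovered reads of the same genes. All fits were tested on simulated data. Alternatives were pseudocounts of 0.1 and 5, no filter or a minimum mean of 50, quantile and TMM scaling, no variance trend, a replicate block and the omission of each library. Exon lengths and transcripts came from GENCODE vM21 on GRCm38, a different build from mm9. Named genes were the 10 members, the genes of each list past the unadjusted threshold or, in a list with none, its highest and lowest log2 difference, and the 5 genes nearest to the members' mean profile. A value that falls under this rule in the erythroid list is not reported here. The members and lists were chosen with earlier results of these data known. No columns were left unused, and the labels give no batch.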

Additional observations from a re-analysis of the deposited data

How the results depend on the processing

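Over the 10 alternatives that kept all libraries, 98 of 99 member values kept their direction and side of the unadjusted threshold, and *Jund* had no value at a minimum mean of 50. The exception was *Egr1*, which lost its unadjusted call without a variance trend, so that 0 members were called there. The log2 difference of *Egr1* ranged from -0.47 to -0.37 over these alternatives. Sizes moved most under quantile normalization, where the members' median was -0.20. There *Ier2* (-0.051) and *Dusp1* (-0.038) came close to 0, and *Fos* (-0.24) and *Fosb* (-0.15) were also smaller. *Jun* and *Junb* were both at 0.14, while *Jund* (-1.02) and *Nr4a1* (-0.39) moved further below 0. DESeq2 called 59 genes after adjustment, against 0 with limma. Leaving out 1 library at a time, where the lone sample of a group is assumed to vary like the others, gave 276 to 1569 genes at the unadjusted threshold, 0 to 2 members, a members' median of -0.40 to -0.078, and 3 to 11 of the 77 further listed genes (5 with all libraries), with 0 after adjustment throughout. Signs turned for *Ier2* without WT1 (0.13), *Junb* without WT2 (-0.030) or cKO2 (-0.023), *Nr4a1* without cKO1 (0.059) and *Fosb* without cKO2 (0.086), with ranges of -0.45 to 0.13 for *Ier2*, -0.030 to 0.080 for *Junb*, -0.73 to 0.059 for *Nr4a1* and -0.53 to 0.086 for *Fosb*. The cause was not tested. The labels link same-numbered libraries only by their number, and whether these shared a litter or a preparation is not stated. Their correlation of deviations was 0.0325 over 12472 genes, which cannot settle this with 2 libraries per group. The replicate block gave 693 genes, 1 member (*Egr1*) and no call for *Mapk9*. Endothelial markers and *Sparc* also lost their unadjusted calls under quantile normalization (*Ly6c1* -0.51, *Mfsd2a* -0.24, *Flt1* -0.38, *Sparc* -0.21). Without a variance trend *Ccn1*, *Hspb1*, *Csf1r*, *Sparc* and the same 3 endothelial markers were no longer called, *Sparc* was not called by DESeq2 and *Mapk9* not by edgeR. No scaling moved the median of all genes by more than 0.1. The intervals of *Jund* and *Nr4a1* reach more than a log2 unit on either side. Depth limits *Jund*, which had 20 to 39 reads per library. For *Nr4a1* the exact Poisson 95% intervals of the replicates did not overlap, at 299 to 372 reads in WT1 and 160 to 215 in WT2. They were 105 to 150 reads in cKO1 and 205 to 266 in cKO2. The source of the spread between the *Nr4a1* replicates was not tested.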
